A study of Mus musculus with 40 samples.

Results

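Lrrc17 (ENSMUSG00000039883) encodes a secreted leucine-rich repeat protein, and this account follows the counts assigned to that 1 gene, out of 51789 genes in the count table, through 40 mouse melanoma libraries. The gene was chosen by its measured level, as the most abundant transcript of YUMM2.1 cells, so its share of counts, its rank and its level in each line are given as a description with no test. The 20 groups had 2 libraries each and were sequenced by QuantSeq, a 3′ mRNA-sequencing method that starts from poly(A) and gives about 1 read position per transcript. Because reads come from transcript ends, counts were not divided by gene length, and an order of genes is an order of reads.

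The cells were 3 mouse melanoma lines. Among other alleles, YUMM2.1 carries Braf V600E, Cdkn2a+/- and a stabilised β-catenin allele, YUMM1.7 carries Braf V600E and Cdkn2a-/-, and B16-F10 is a pigmented line without engineered alleles. In B16-F10, a Bmal1 knockout clone (KO) was compared with a control clone (Ctrl). YUMM2.1, YUMM1.7 and aC3, which is 1 CRISPR-made Bmal1-null clone of YUMM2.1, each received an empty vector (EV), wild-type Bmal1 (WT-Bmal1) or a Bmal1 without its DNA-binding domain (dHLH-Bmal1) by lentivirus. YUMM2.1 cells with each of those constructs also received a control hairpin (shNC) or a hairpin against Myh9 (shMyh9#2 or shMyh9#4). A clone effect and a Bmal1 effect cannot be told apart in B16-F10, where each genotype is 1 clone, and although the methods call the duplicates biological, nothing in the labels says that the 2 libraries of a group came from separate cultures, so the p-values measure the spread between those libraries.

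Lrrc17 has been described as a product of osteoblasts that restrains RANKL-driven osteoclast formation through phospholipase Cγ and Nfatc1. RANKL (Tnfsf11) acts on its receptor Tnfrsf11a on osteoclast precursors, osteoprotegerin (Tnfrsf11b) is its decoy receptor, and Csf1 keeps those precursors alive. Bmal1, encoded by Arntl, is a clock transcription factor that binds E-box DNA together with Clock, and Myh9 is the heavy chain of non-muscle myosin IIA.

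In GENCODE M21 on mm10 (GRCm38), Lrrc17 lies on the plus strand at chr5:21543559-21575904, inside the span of Fbxl13, which is on the minus strand. Its protein-coding transcript ENSMUST00000035651 has 4 exons and 2154 bases, and its 3′ untranslated region of 546 bases fills the end of exon 4, at chr5:21575359-21575904. Bases 1702 to 1783 of that transcript (chr5:21575452-21575533, in the 3′ untranslated region) are identical over 82 bases to bases 5 to 86 of Bc1, a short non-coding RNA from which rodent ID repeats descend. The same stretch ends in the longest A run of the transcript, 10 bases long at chr5:21575524-21575533, which lies 371 bases before the annotated transcript end. A run of at least that length occurs in 9.3% of 58797 protein-coding transcripts. The 30 bases that end in that A run, with the A run in capitals, are shown because a 3′ method can also start from an internal A run:
Lrrc17 A run: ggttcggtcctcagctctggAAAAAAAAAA

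Outside Fbxl13, 33 genes, Bc1 among them, shared at least 1 stretch of 25 bases with the Lrrc17 transcript on either strand, and for 32 of them it lay within the bases shared with Bc1. Bc1 itself was not among the genes counted, so no counts could be assigned to it. The genes below are shown because they carry bases near the end of the stretch on the same strand and, apart from Bc1, had high counts. Timm22, Kif3a, Ccdc36 and Dennd4a matched bases 1744 to 1770, which stop short of the A run. Cnot3, which also shared 25 bases up to base 1770 and had a median of 2084.5 counts, is not shown. Capitals mark bases identical to Lrrc17, from mm10 transcripts read 5′ to 3′:
Lrrc17: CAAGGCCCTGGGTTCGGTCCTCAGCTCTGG
Bc1: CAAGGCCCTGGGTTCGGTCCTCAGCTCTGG
Timm22: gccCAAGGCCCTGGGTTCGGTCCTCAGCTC
Kif3a: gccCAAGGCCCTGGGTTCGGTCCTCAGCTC
Ccdc36: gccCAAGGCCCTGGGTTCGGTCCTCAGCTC
Dennd4a: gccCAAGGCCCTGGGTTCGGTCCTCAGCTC

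The bases shown lie at chr5:21575494-21575523 in Lrrc17 and chr7:144914516-144914545 in Bc1, both on the plus strand. Timm22 (chr11:76414655-76414684, plus strand), which encodes a mitochondrial inner-membrane import subunit, Kif3a (chr11:53601909-53601938, plus strand), a kinesin motor subunit, and Ccdc36 (chr9:108403645-108403674, minus strand), a meiotic gene, carry them in 3′ untranslated regions. Dennd4a (chr9:64900910-64900939, plus strand) carries them in a retained-intron transcript. The table holds 1 value per gene, so reads from the annotated end of Lrrc17, reads from its internal A run and reads of ID repeats elsewhere cannot be told apart, and every value below is one of counts assigned to Lrrc17.

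**Figure D1:**
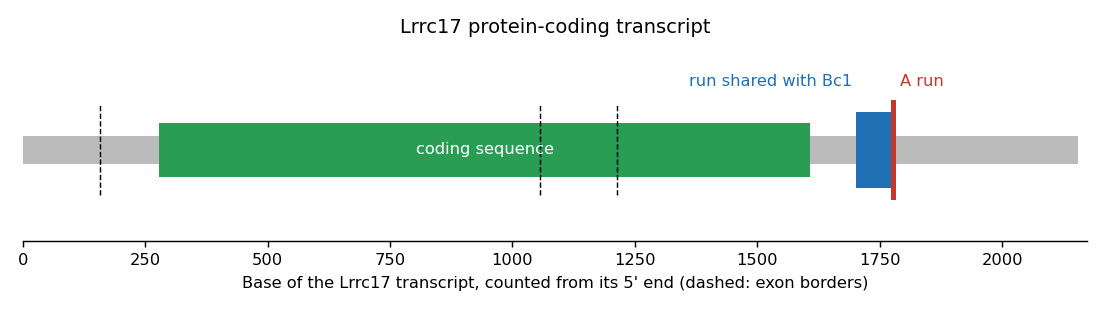
Map of the Lrrc17 protein-coding transcript, to scale, with the base number from the 5′ end on the x axis; grey marks untranslated sequence, green the coding sequence, blue the bases shared with Bc1 and red the A run, and dashed lines mark exon borders. The shared bases, 1702 to 1783, sit in the 3′ untranslated region, 371 bases before the transcript end.

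Library totals ran from 3643332 to 22970049 counts (median 10021164.5), and Lrrc17 had 113843 to 616061 counts in each library. Counting error was small at that depth: in the smallest library, 1 of the dHLH-Bmal1 shMyh9#4 pair, the share was 3.12% with an exact (Clopper-Pearson) 95% interval of 3.11% to 3.14%, which covers counting error only. Melanocytic markers (9 genes, among them Dct, Pmel and Tyrp1) summed to 19754 to 26037 CPM (counts scaled to a common library size) in B16-F10. They summed to 31.5 to 626 CPM in the YUMM2.1-derived libraries and to 10.7 to 14.8 CPM in YUMM1.7. Of the 9, 4 had any count in YUMM1.7, 4 in YUMM2.1, 4 in aC3 and 5 in the hairpin libraries. Sox10, another of the 9, averaged 349 CPM in YUMM2.1, 525 in aC3, 117 in the hairpin libraries and 0.826 in YUMM1.7. Dct, Pmel and Tyrp1 each averaged at most 0.178 CPM in these sets. Leukocyte markers summed to at most 3.95 CPM, keratinocyte markers to at most 0.486 CPM, endothelial markers to at most 26.4 CPM and fibroblast markers to at most 273 CPM in any library.

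The labels of a pair of YUMM2.1 libraries could not be taken as given. By correlation over the genes in both, the library labelled YUMM2.1 EV replicate 2 was the best match of a WT-Bmal1 column, and the library labelled YUMM2.1 WT replicate 1 the best match of an EV column, in the normalised counts that accompany the article. Bgn, which encodes the proteoglycan biglycan and was chosen for this check after its values were seen, had 546 and 1064 counts in the libraries labelled EV and 564 and 1063 counts in those labelled WT. The deposited labels were kept, and each tested YUMM2.1 comparison that uses these libraries is given also with the pair of labels exchanged. Some other values, among them the level ratio to B16-F10 Ctrl and the replicate block, are given by the deposited labels only.

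Lrrc17 took the largest share of counts of any gene over the 15 YUMM2.1-derived groups, 3.20% on average. Gm42418, an annotated lincRNA that overlaps a ribosomal RNA repeat, followed at 2.999%, and Actb, which encodes β-actin, at 1.21%. Hsp90ab1, a chaperone, took 0.521% and the nuclear RNA Malat1 0.504%. Lrrc17 ranked first in 17 of the 30 YUMM2.1-derived libraries and second, behind Gm42418, in the other 13, all of which carried hairpins. It was first in each of the 6 YUMM2.1 and 6 aC3 libraries without hairpins and in 5 of the 18 hairpin libraries. "Most abundant" therefore holds for YUMM2.1 and aC3 without hairpins, and among protein-coding genes for the hairpin libraries. In YUMM1.7 Lrrc17 had rank 2 in 5 libraries and rank 3 in 1, and in B16-F10 it had rank 3 in 3 libraries and rank 8 in the KO library with the lowest share. The genes above it there included Dct, a melanin-synthesis enzyme, which was higher than Lrrc17 in 4 libraries.

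The share of counts set YUMM2.1 apart from the other lines. It was 2.37% to 4.23% (median 3.20%) in the 30 YUMM2.1-derived libraries, 1.24% to 1.44% (median 1.36%) in the 6 YUMM1.7 libraries and 0.562% to 1.32% (median 0.959%) in the 4 B16-F10 libraries, so that YUMM1.7 and B16-F10 overlapped, while every library of both lay below every YUMM2.1-derived library. Scaled by TMM factors, the YUMM2.1 EV libraries had 25151 and 29890 CPM, the YUMM1.7 EV libraries 13984 and 13585 CPM and the B16-F10 Ctrl libraries 9457 and 12372 CPM. The YUMM2.1 EV mean was 1.99-fold that of YUMM1.7 EV (log2 ratio 0.99 ± 0.18, combined SD, n = 2 each) and 2.53-fold that of B16-F10 Ctrl (log2 ratio 1.34 ± 0.33, n = 2 each). YUMM1.7 EV was 1.27-fold B16-F10 Ctrl, with a log2 ratio of 0.35 ± 0.28 (n = 2 each).

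Over all 20 groups the highest mean was that of dHLH-Bmal1 shMyh9#2, 44223 ± 1464 CPM (SD, n = 2), and the lowest that of B16-F10 KO, 7046 ± 1855 CPM (SD, n = 2). Ordered by mean, 16 of the 19 neighbouring pairs of groups had overlapping libraries. The 3 gaps lay between dHLH-Bmal1 shMyh9#2 and YUMM2.1 dHLH-Bmal1 (37894 ± 4047 CPM), between EV shMyh9#2 (24739 ± 1097 CPM) and YUMM1.7 EV (13785 ± 282 CPM), and between B16-F10 Ctrl (10914 ± 2061 CPM) and B16-F10 KO. The second of these gaps, 10954 CPM, was that between the YUMM2.1-derived groups and the other 2 lines. The groups between the first 2 gaps ran together from 37894 to 24739 CPM, and neighbours there did not differ beyond their spread.

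**Figure D2:**
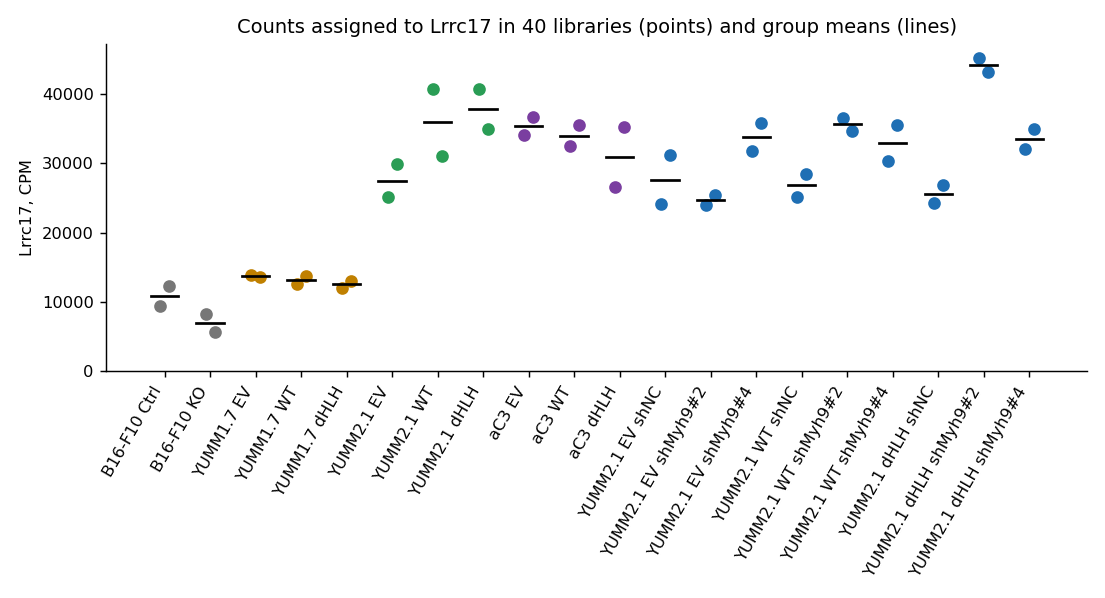
Lrrc17 in CPM (y axis) in each of the 40 libraries (points) and as the mean of the 2 libraries of a group (lines), by group on the x axis; colours mark B16-F10 (grey), YUMM1.7 (orange), YUMM2.1 (green), aC3 (purple) and YUMM2.1 with hairpins (blue). All 30 YUMM2.1-derived libraries lie at 23963 CPM or higher and all 10 others at 13984 CPM or lower.

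The genes around Lrrc17 were read at far lower levels. Of the 15 other genes annotated within 250000 bases, Psmc2, a proteasome ATPase, had a median of 1333 counts, the ribosome-associated chaperone gene Dnajc2 1160.5, and Armc10 238.5. Fbxl13, which overlaps Lrrc17, had a median of 2 counts and at most 16. Across lines the neighbours differed in their order. Psmc2 averaged 126 CPM in B16-F10, 140 CPM in YUMM1.7 and 132 CPM in YUMM2.1, and Dnajc2 averaged 207, 161 and 113 CPM in the same order. Gsap, which encodes a γ-secretase activating protein, averaged 0.0944, 4.89 and 8.22 CPM and Armc10 20.1, 23.1 and 23.4 CPM. These YUMM2.1 means cover the libraries without hairpins. Both genes were lowest in B16-F10, as Lrrc17 was, but Armc10 was nearly equal in YUMM1.7 and YUMM2.1. In the YUMM2.1 hairpin libraries Armc10 averaged 21.3 CPM, below YUMM1.7, and Gsap 5.19 CPM. Both averaged more in aC3 than in YUMM2.1. Armc10 was thus not above YUMM1.7 in every YUMM2.1-derived set, while Lrrc17 was. In the window of 250 bases before the RefSeq start (GRCm38.p6, both strands searched), the E-box CACGTG and the AP-1 motif TGACTCA were absent. The E-box was found in 6.0% and the AP-1 motif in 4.5% of 32851 such windows, and no match says only that these letters are not in this window.

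Among the genes with the repeat stretch, those printed above were picked for their high counts, so their level is a description. Timm22 averaged 1202 CPM in B16-F10, 2256 in YUMM1.7 and 2672 in YUMM2.1, Ccdc36 averaged 495, 1151 and 1211 CPM and Kif3a 764, 995 and 1114 CPM, each lowest in B16-F10. Nf2, which also carries the end of the stretch, was highest in B16-F10, with 76.0 CPM against 53.9 in YUMM1.7 and 60.1 in YUMM2.1. Timm22 counts ran from 2.89% to 29.6% of those of Lrrc17 over the 40 libraries and Ccdc36 from 0.918% to 14.9%, so neither kept a fixed ratio to it.

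The first tests concerned Bmal1 loss. Arntl itself checked nothing about the B16-F10 labels: it had 319 and 221 counts in Ctrl and 326 and 240 counts in KO, and a CRISPR deletion need not lower reads at the transcript end. Lrrc17 had 9457 and 12372 CPM in Ctrl and 8357 and 5734 CPM in KO, so both KO libraries lay below both Ctrl libraries. The log2 difference was -0.64 ± 0.25 (SE), with an adjusted p of 0.418, and was not called, where 0.440% of 14556 genes were called. Leaving out 1 KO library, which leaves the other KO library alone and assumed to vary like Ctrl, gave a call at -0.39 without replicate 2 (adjusted p = 0.00464) and at -0.94 without replicate 1 (adjusted p = 4.86e-13). Leaving out a Ctrl library gave no call, at -0.83 without replicate 1 and -0.44 without replicate 2 (adjusted p = 1.00 for both). A fit of all 40 libraries also called it (-0.63, adjusted p = 0.00989).

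The construct comparisons asked whether WT-Bmal1 or dHLH-Bmal1 shifted Lrrc17, and none of the 12 was called by edgeR's quasi-likelihood test. In the libraries of aC3, EV had 34144 and 36704 CPM, WT-Bmal1 32510 and 35499 CPM and dHLH-Bmal1 26606 and 35322 CPM, and the 3 groups overlapped. The log2 difference was -0.06 ± 0.13 for WT-Bmal1 against EV (adjusted p = 0.819, 95% interval -0.34 to 0.21), in a comparison that called 11.2% of 13790 genes. For dHLH-Bmal1 against EV it was -0.21 ± 0.13 (adjusted p = 0.337), where 10.9% of genes were called. WT-Bmal1 against dHLH-Bmal1 gave 0.15 ± 0.13 (adjusted p = 0.721), where 0.877% were called. Replicate 1 of dHLH-Bmal1, at 26606 CPM, lay below every other aC3 library. Without replicate 2, which leaves replicate 1 alone, the differences were -0.43 against EV and 0.37 for WT-Bmal1 against dHLH-Bmal1. With each library left out in turn, they ran from -0.43 to -0.02 and from -0.04 to 0.37.

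In YUMM2.1 the libraries labelled WT-Bmal1 had 40778 and 31123 CPM and those of dHLH-Bmal1 40756 and 35032 CPM, all above the 25151 and 29890 CPM of the libraries labelled EV. The log2 difference was 0.38 ± 0.17 for WT-Bmal1 against EV (adjusted p = 1), a comparison in which edgeR called 0% of 14323 genes, with 98 genes at an unadjusted p under 0.05 and 1 gene called by DESeq2. With the labels of the 2 libraries exchanged it was -0.12 ± 0.19 (adjusted p = 0.829), and the sign turned. For dHLH-Bmal1 against EV it was 0.47 ± 0.17 (adjusted p = 0.122), where 13.2% of genes were called. With the labels exchanged that difference was 0.20 (adjusted p = 0.470). It was called with the replicate number as a block (0.46, adjusted p = 0.0200). In YUMM2.1 the deviations of same-numbered libraries correlated in each of the 3 pairs of groups (0.18 to 0.39). The block and these correlations use the deposited labels of the doubtful pair and were not repeated with the labels exchanged. They therefore cannot say whether same-numbered libraries belong together. WT-Bmal1 against dHLH-Bmal1 gave -0.08 ± 0.17 (adjusted p = 0.801), where 13% were called, and -0.32 ± 0.19 with the labels exchanged (adjusted p = 0.298).

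Arntl had 15.9 and 13.9 CPM in the YUMM2.1 libraries labelled EV, 13.9 and 18.2 CPM in those labelled WT-Bmal1 and 51.1 and 35.4 CPM in dHLH-Bmal1.

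In YUMM1.7 the libraries of a group lay close together. EV had 13984 and 13585 CPM, WT-Bmal1 12618 and 13818 CPM and dHLH-Bmal1 12079 and 13052 CPM, so that both dHLH-Bmal1 libraries lay below both EV libraries. The log2 differences were -0.05 ± 0.04 for WT-Bmal1 against EV (adjusted p = 0.743, 0.138% of 13816 genes called), -0.13 ± 0.04 for dHLH-Bmal1 against EV (adjusted p = 0.225, 0.630% called) and 0.08 ± 0.04 for WT-Bmal1 against dHLH-Bmal1 (adjusted p = 0.363, 2.57% called). The 95% intervals of these 3 differences lay between -0.21 and 0.17.

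The effect of each construct was also compared between lines. Against YUMM2.1, the WT-Bmal1 effect was lower by 0.44 ± 0.23 on the log2 scale in aC3 (adjusted p = 0.737) and lower by 0.45 ± 0.23 in YUMM1.7 (adjusted p = 1.00), where 0.168% and 0% of 16619 genes were called. Of the latter comparison's genes, 351 had an unadjusted p under 0.05 and DESeq2 called 1. With the 2 labels exchanged, the WT-Bmal1 differences became 0.05 in both lines. The dHLH-Bmal1 effect was lower by 0.66 ± 0.23 in aC3 (adjusted p = 0.0628, 11.6% called) and lower by 0.59 ± 0.23 in YUMM1.7 (adjusted p = 0.109, 9.42% called). The first of these was called without aC3 dHLH-Bmal1 replicate 2, at -0.86 (adjusted p = 0.0231), and without both doubtful libraries, at -0.80 (adjusted p = 0.0325). With the labels exchanged it was smaller, at -0.40 (adjusted p = 0.338), as was the difference in YUMM1.7, at -0.33 (adjusted p = 0.459).

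Myh9 checked the hairpin labels. It had 703 and 665 CPM in EV shNC, 229 and 248 CPM in EV shMyh9#2 and 492 and 465 CPM in EV shMyh9#4. The same order held in WT-Bmal1 (means 971, 237 and 508 CPM) and in dHLH-Bmal1 (means 892, 277 and 657 CPM), and all 6 decreases were called, with log2 changes from -2.04 (WT-Bmal1, shMyh9#2) to -0.42 (dHLH-Bmal1, shMyh9#4).

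Under the control hairpin the 3 constructs had similar Lrrc17 levels, 24157 and 31174 CPM in EV, 25230 and 28487 CPM in WT-Bmal1 and 24264 and 26967 CPM in dHLH-Bmal1, and all 3 groups overlapped. The log2 difference was -0.04 ± 0.10 for WT-Bmal1 against EV (adjusted p = 0.821), where 22.3% of 14848 genes were called, and -0.10 ± 0.10 for dHLH-Bmal1 against EV (adjusted p = 0.504), where 26.4% were called. WT-Bmal1 against dHLH-Bmal1 gave 0.06 ± 0.10 (adjusted p = 0.850, 1.91% called). The 95% intervals of these differences lay between -0.32 and 0.28.

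Lrrc17 rose with Myh9 knockdown in cells with dHLH-Bmal1. With shMyh9#2 the 2 libraries had 45258 and 43188 CPM, both above the 24264 and 26967 CPM of shNC. The log2 change was 0.78 ± 0.10, a 1.72-fold increase with an adjusted p of 0.00109, in a comparison that called 0.559% of genes. With shMyh9#4 the libraries had 32082 and 34926 CPM, again above shNC, with a log2 change of 0.41 ± 0.10 (adjusted p = 0.0133), but this comparison called 15.1% of genes. The shMyh9#2 increase was called with each of its 4 libraries left out in turn (0.72 to 0.87, adjusted p of at most 0.0437) and under every alternative setting tried (0.75 to 0.80). The shMyh9#4 increase was not called in a fit of all 40 libraries (0.39, adjusted p = 0.114), without shNC replicate 1 (0.34, adjusted p = 0.138) or without shMyh9#4 replicate 2 (0.34, adjusted p = 0.160).

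In cells with WT-Bmal1, shMyh9#2 gave 36596 and 34683 CPM against 25230 and 28487 CPM in shNC, with no overlap. The log2 change was 0.40 ± 0.10 (adjusted p = 0.0292, 4.76% of genes called). The call was lost with any 1 of the 4 libraries left out: without shNC replicate 1 the change was 0.32 (adjusted p = 0.235), without shNC replicate 2 it was 0.49 (adjusted p = 0.0585), without shMyh9#2 replicate 1 it was 0.37 (adjusted p = 0.180) and without shMyh9#2 replicate 2 it was 0.45 (adjusted p = 0.0948). A fit of all 40 libraries also did not call it (0.41, adjusted p = 0.166). With shMyh9#4 the libraries had 30415 and 35501 CPM, also above shNC, and the change of 0.30 ± 0.10 was not called (adjusted p = 0.225, 0.236% of genes called).

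In cells with EV the means of the 2 hairpins lay on opposite sides of the shNC mean. The shMyh9#2 libraries had 23963 and 25514 CPM, overlapping the 24157 and 31174 CPM of shNC, and the log2 difference was -0.16 ± 0.10 (adjusted p = 0.403, 6.65% of genes called). The shMyh9#4 libraries had 31824 and 35890.5 CPM, both above shNC, and the difference was 0.29 ± 0.10 (adjusted p = 0.255, 1.71% called). Both differences were higher without EV shNC replicate 2, which leaves replicate 1 alone: 0.02 for shMyh9#2 and 0.49 for shMyh9#4.

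The effect of shMyh9#2 differed between constructs. It was higher in dHLH-Bmal1 than in EV by 0.94 ± 0.14 on the log2 scale (adjusted p = 0.00093, 3.29% of genes called), and higher in WT-Bmal1 than in EV by 0.56 ± 0.14 (adjusted p = 0.0316, 5.18% called). The first difference was called with each of its 8 libraries left out in turn (0.78 to 1.12, adjusted p of at most 0.0113). The second was lost with 6 of its 8 libraries left out: at 0.40 (adjusted p = 0.136) without EV shNC replicate 2, at 0.52 (adjusted p = 0.141) and 0.60 (adjusted p = 0.0689) without EV shMyh9#2 replicates 1 and 2, at 0.48 (adjusted p = 0.119) without WT-Bmal1 shNC replicate 1, and at 0.55 (adjusted p = 0.0992) and 0.63 (adjusted p = 0.0564) without WT-Bmal1 shMyh9#2 replicates 1 and 2. For shMyh9#4, the difference from EV was 0.01 ± 0.14 in WT-Bmal1 (adjusted p = 0.998, 0.741% called) and 0.12 ± 0.14 in dHLH-Bmal1 (adjusted p = 0.661, 8.51% called), with 95% intervals between -0.30 and 0.42. A few cell type markers also moved with shMyh9#2. Of 3 melanocytic markers tested, the transcription factor gene Sox10 fell in EV (-0.83), WT-Bmal1 (-1.48) and dHLH-Bmal1 (-0.90), while Mitf (0.63 in EV) and Tyr (1.29 in EV) were not called in any construct. Of 3 fibroblast markers tested, the collagen gene Col1a1 rose in EV (3.40) and WT-Bmal1 (1.22) and had a value of 0.38 in dHLH-Bmal1 (adjusted p = 0.173), while Pdgfra and Pdgfrb were not called. Of 2 endothelial markers, Cdh5 rose in EV (1.83), with a called difference of -1.86 for dHLH-Bmal1 less EV, and Pecam1 was not called. The summed fibroblast markers ran from 8.85 to 273 CPM and the melanocytic markers from 31.5 to 349 CPM over the hairpin libraries, and their part in the Lrrc17 differences was not tested. The comparisons of 1 construct share its shNC libraries, and the differences between constructs share the EV libraries.

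**Figure D3:**
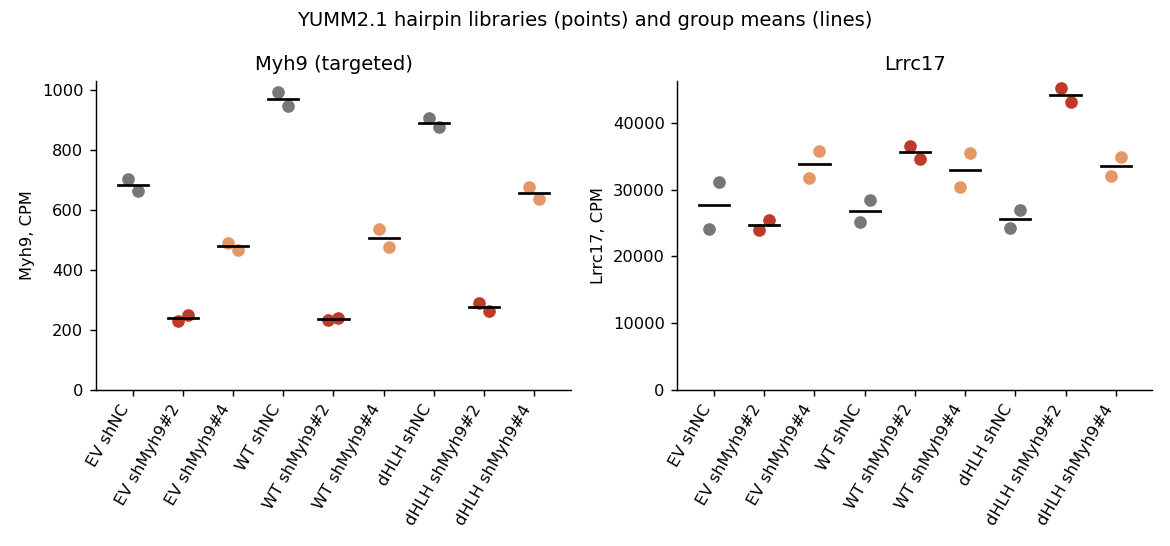
Myh9 (left) and Lrrc17 (right) in CPM (y axes) in the 18 YUMM2.1 hairpin libraries (points), with the mean of each group of 2 libraries (lines), by construct and hairpin on the x axis; shNC is grey, shMyh9#2 red and shMyh9#4 orange. Myh9 is lowest with shMyh9#2 in all 3 constructs, while Lrrc17 with shMyh9#2 is 24739 CPM on average in EV, 35639 CPM in WT-Bmal1 and 44223 CPM in dHLH-Bmal1.

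Over the 27 comparisons Lrrc17 was called in 5, all towards a higher value, and all in the hairpin experiment. The share of genes called in each of those comparisons stands beside it above.

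**Figure D4:**
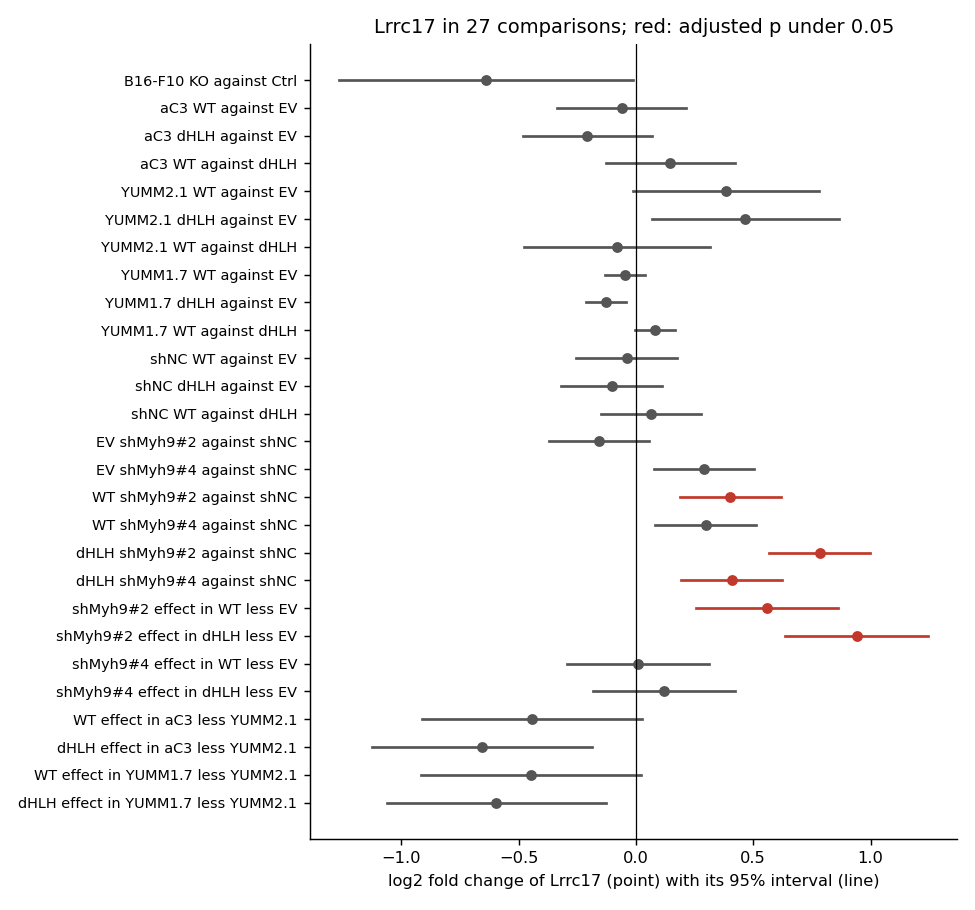
Log2 fold change of Lrrc17 (points, x axis) with its 95% interval (lines) in each of the 27 comparisons (y axis), with those at an adjusted p under 0.05 in red. The 5 called values lie between 0.40 and 0.94, all with Myh9 hairpins in WT-Bmal1 or dHLH-Bmal1 cells.

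The pathway genes around Lrrc17 were mostly low in these cells. Of 16 genes of the RANKL axis, 7 averaged at least 1 CPM, Csf1 highest. Tnfsf11 had no count in any library. Tnfrsf11a reached at most 2.02 CPM and Tnfrsf11b at most 3.56 CPM. In the 6 comparisons of a Myh9 hairpin with shNC, which called 0.236% to 15.1% of all genes, 9 of the list were tested. Csf1 rose with shMyh9#2 in EV (0.99 ± 0.15, adjusted p = 0.000346) and in WT-Bmal1 (1.27 ± 0.14, adjusted p = 1.93e-05), and no other member was called in any of the 6. In dHLH-Bmal1, where Lrrc17 rose most, the Csf1 libraries had 101 and 122 CPM with shMyh9#2 and 85.1 and 77.8 CPM with shNC. In EV, where Lrrc17 did not rise, Csf1 had 50.1 and 49.9 CPM with shMyh9#2 and 22.3 and 27.9 CPM with shNC. Under shNC, dHLH-Bmal1 raised 3 of the 9 tested genes over EV, namely Csf1 (1.705 ± 0.15), Plcg1 (0.53 ± 0.16), which encodes the phospholipase, and the transcription factor gene Nfatc1 (0.88 ± 0.27), with none lower, in a comparison that called 26.4% of all genes.

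Of 12 osteoblast lineage genes, 7 averaged at least 1 CPM. Sparc, an abundant bone matrix glycoprotein, averaged 694 CPM in B16-F10, 1454 in YUMM1.7 and 3503 in YUMM2.1, and the osteoblast transcription factor gene Runx2 averaged 2.103, 23.5 and 21.5 CPM in the same order. None of the 7 tested was called with shMyh9#2 in WT-Bmal1 or dHLH-Bmal1, the comparisons with the largest called rise of Lrrc17 in each construct. They called 4.76% and 0.559% of all genes. With shMyh9#4 in dHLH-Bmal1, Sparc (0.75 ± 0.14) and Postn (0.72 ± 0.20), both matrix proteins, rose and none of the 7 fell, where 15.1% of all genes were called. In EV, Postn fell by 0.90 ± 0.18 with shMyh9#2 and by 0.72 ± 0.18 with shMyh9#4, where Spp1, which encodes osteopontin, rose (0.53). Those comparisons called 6.65% and 1.71% of all genes.

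Other leucine-rich repeat proteins of the cell surface or matrix changed in both directions. Of 39 genes, 19 were tested in the hairpin fit. With shMyh9#2, EV had 2 higher, among them the axon guidance ligand Slit2 (0.81 ± 0.16), and 2 lower, where 6.65% of all genes were called. WT-Bmal1 had 1 higher and 3 lower, among them Slit2 (-0.71 ± 0.14) and Lgi4, a secreted protein of peripheral glia (-1.17 ± 0.15), where 4.76% were called. In dHLH-Bmal1, where Lrrc17 rose by 0.78 and 0.559% of all genes were called, none of the 19 was. Among 18 small leucine-rich proteoglycans, 5 were tested in the same shMyh9#2 comparisons. Bgn rose in EV (4.38 ± 0.19), WT-Bmal1 (1.73 ± 0.15) and dHLH-Bmal1 (0.89 ± 0.14). Podnl1, the only other member called, rose in EV (1.64). The order of the Bgn changes across constructs was thus the opposite of that of Lrrc17, for which EV had the lowest and dHLH-Bmal1 the highest value. Bgn started, however, from shNC means of 6.28 CPM in EV (61 and 45 counts), 131 CPM in WT-Bmal1 and 354 CPM in dHLH-Bmal1.

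The gene whose group means lay closest to those of Lrrc17 was Vps8, which encodes a subunit of an endosomal tethering complex. Among 8933 genes with a mean of at least 10 CPM, its log2 CPM had a Pearson r of 0.979 (Spearman 0.916) with Lrrc17 over the 20 groups. These points fall into lines, and r over the 15 YUMM2.1-derived groups was 0.802, where it ranked second behind Pfn2 at 0.820. Over the 9 hairpin groups r was 0.918, the highest of 8648 genes. The points share libraries and depth, and r is given as a description. Vps8 averaged 499 CPM in B16-F10, 623 in YUMM1.7 and 1424 in YUMM2.1. In dHLH-Bmal1 cells it had 1993 and 1952 CPM with shMyh9#2 and 1257 and 1381 CPM with shNC, without overlap. Its counts were 2.86% to 5.98% of those of Lrrc17 (median 4.58%), a 2.09-fold range over the 40 libraries, against a 10.2-fold range for Timm22 and an 8.23-fold range for Actb. Because Vps8, unlike Timm22 and Actb, was picked by its r with Lrrc17 in these same libraries, its narrower range is a description too. Vps8 was not among the genes that share 25 bases with the Lrrc17 transcript.

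Next to Vps8 over the 20 groups came Tspan2 (r = 0.958), Serpine2 (0.948), Ptk2b (0.948) and Pdlim4 (0.944), and the lowest were Bod1l (-0.937), Zmynd8 (-0.932) and Aebp1 (-0.931). Over the 9 hairpin groups Vps8 was followed by Slc25a17 (0.893), Copz2 (0.869), Cc2d1b (0.853) and Rpgrip1 (0.846), and the lowest were Pds5b (-0.935), Ttc23 (-0.932) and Atg7 (-0.906). Vps8 was the only gene among the 5 highest in both sets.

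**Figure D5:**
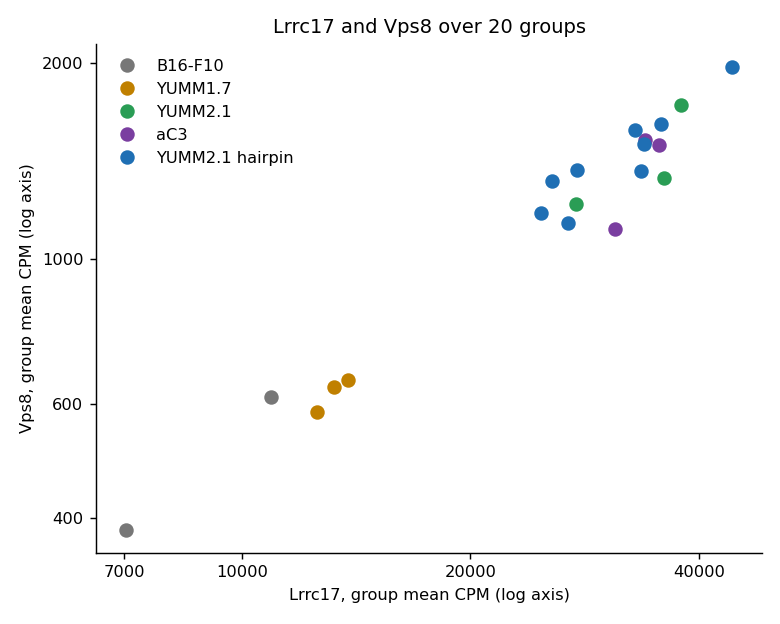
Mean CPM of Lrrc17 (x axis, log scale) and Vps8 (y axis, log scale) in each of the 20 groups (points; 2 libraries each), coloured by line. The B16-F10 and YUMM1.7 groups lie at the lower left and the 15 YUMM2.1-derived groups at the upper right, with r = 0.979 over all 20 and 0.802 within the 15.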

How the data were processed

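Mouse melanoma cell lines were profiled by QuantSeq 3′ mRNA-sequencing. The authors aligned reads to mm10 with bowtie2 and estimated expected counts per Ensembl gene with RSEM (version 1.2.3 in the submitters' processing notes), and these estimated counts were deposited as whole numbers. RSEM divides reads that fit several genes, so counts of genes with shared sequence can be split among them. That holds only among the genes counted, and Bc1 was not 1 of them. The counting strand and annotation release are not given in the sources used here. No column was left unused. Of the 51789 gene IDs, 51596 (99.63%) matched GENCODE M21.

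Counts were tested in R 4.3.3 with edgeR 4.0.16 (TMM factors, filterByExpr, quasi-likelihood F-test), 1 fit per experiment and 1 of all 40 libraries for differences between lines. Values printed with ± are log2 changes with standard errors unless SD is named. Adjusted p-values are Benjamini-Hochberg over all genes tested, with calls under 0.05. CPM used TMM factors over all 40 libraries. Genes with similar patterns were ranked by Pearson r of group-mean log2 CPM (prior count 2). With 2 libraries per group an exact permutation test cannot go below 0.333 and was not run. On simulated data like the dHLH-Bmal1 shMyh9#2 comparison (14848 genes), 46.9% of genes changed 2-fold and 17.2% of those changed 1.5-fold were recovered. The same shares were 1.52% and 0% for B16-F10 KO (14556 genes) and 12.5% and 0% for YUMM2.1 WT-Bmal1 against EV (14323 genes). Genes simulated without a change were also called: 9, 12 and 5 in the same order of comparisons. The changed genes were drawn from all genes tested, so the shares do not give the recovery of a gene with counts as high as Lrrc17. Alternatives were other scalings, DESeq2 1.42.0, other filters, other fits, a replicate block, exchanged labels and left-out libraries.

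Named genes were Lrrc17, Arntl, Myh9, genes within 250000 bases, members of fixed lists (RANKL axis, osteoblast lineage, extracellular leucine-rich repeat, small leucine-rich proteoglycan and cell type markers), the 5 genes with the largest shares, and the 5 highest and 3 lowest r. Gene, lists and rules were chosen with earlier results of these data known. An engineered allele of the YUMM lines is not reported here.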

Additional observations from a re-analysis of the deposited data

Results flagged for a closer look

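The effect of shMyh9#2 on Lrrc17 differed between constructs by the test of the difference itself. It was higher in dHLH-Bmal1 than in EV by 0.94 on the log2 scale (adjusted p = 0.00093 by edgeR's quasi-likelihood test, 2 libraries per group) and higher in WT-Bmal1 than in EV by 0.56 (adjusted p = 0.0316). In EV, 1 of the 2 shMyh9#2 libraries lay below both shNC libraries, while in WT-Bmal1 and dHLH-Bmal1 both lay above both. The share of Gm42418, the other gene with a share of that size, ran from 2.02% to 4.85% over the hairpin libraries, and its part in these differences was not tested.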

How the results depend on the processing

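Over 27 comparisons of Lrrc17 and 370 alternatives, 313 kept direction and call, 15 lost the call, 19 gained one and 23 turned sign. The shMyh9#2 increase in dHLH-Bmal1, and its difference from EV, kept their calls under each of these. Size factors of DESeq2, or its Wald test, gave -0.0041 for the shMyh9#4 difference of WT-Bmal1 from EV. The Wald test gave -0.65 for the dHLH-Bmal1 effect in aC3 less YUMM2.1, which was then called. Without TMM factors, YUMM2.1 WT-Bmal1 against dHLH-Bmal1 was 0.0415. Without a filter on low counts, calls were gained for dHLH-Bmal1 against EV in aC3 (-0.21), YUMM2.1 (0.44) and YUMM1.7 (-0.13), for shMyh9#4 in EV (0.30) and WT-Bmal1 (0.28), and for the dHLH-Bmal1 effect in aC3 (-0.65) and YUMM1.7 (-0.57) less YUMM2.1, and the shMyh9#4 difference of WT-Bmal1 from EV was -0.0155. In 1 fit of all 40 libraries, calls were gained for B16-F10 KO (-0.63) and YUMM2.1 dHLH-Bmal1 against EV (0.46), and lost for shMyh9#2 in WT-Bmal1 (0.41), shMyh9#4 in dHLH-Bmal1 (0.39) and the shMyh9#2 difference of WT-Bmal1 from EV (0.57). With the YUMM2.1 labels exchanged, WT-Bmal1 against EV was -0.12, its effect in aC3 and in YUMM1.7 less YUMM2.1 was 0.0525 and 0.0511, and the log2 level ratio of YUMM2.1 EV to YUMM1.7 EV was 1.22. With both libraries left out, the dHLH-Bmal1 effect in aC3 less YUMM2.1 was -0.80 and was called. The cause of these changes was not tested.

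With the replicate block, calls were gained for YUMM2.1 dHLH-Bmal1 against EV (0.46, adjusted p = 0.0200) and the dHLH-Bmal1 effect in aC3 less YUMM2.1 (-0.67, adjusted p = 0.0475), and no other call changed. Nothing in the labels says what a replicate number marks, and a group has 2. The mean correlation of same-numbered deviations was 0.10 in B16-F10, 0.05 in aC3, 0.32 in YUMM2.1 (0.18 to 0.39 over 3 pairs of groups), -0.002 in YUMM1.7 and -0.004 in the hairpin libraries. The YUMM2.1 correlations and block use the deposited labels of the doubtful pair and were not repeated with the labels exchanged.

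With 1 library left out, values ran from -0.94 to -0.39 for B16-F10 KO. In aC3 they ran from -0.13 to 0.0033 (WT-Bmal1 against EV), -0.43 to -0.0226 (dHLH-Bmal1 against EV) and -0.0413 to 0.37 (WT-Bmal1 against dHLH-Bmal1). In YUMM2.1 they ran from 0.17 to 0.57 (WT-Bmal1 against EV) and -0.29 to 0.11 (WT-Bmal1 against dHLH-Bmal1). In YUMM1.7 they ran from -0.11 to 0.0097 (WT-Bmal1 against EV), -0.18 to -0.0756 (dHLH-Bmal1 against EV) and 0.0153 to 0.14 (WT-Bmal1 against dHLH-Bmal1). The WT-Bmal1 effect less that in YUMM2.1 ran from -0.60 to -0.24 in aC3 and from -0.60 to -0.23 in YUMM1.7. Under shNC they ran from -0.21 to 0.14 (WT-Bmal1 against EV), -0.28 to 0.0817 (dHLH-Bmal1 against EV) and -0.0229 to 0.15 (WT-Bmal1 against dHLH-Bmal1). For shMyh9#2 they ran from -0.33 to 0.0162 in EV and 0.32 to 0.49 in WT-Bmal1, and for shMyh9#4 from 0.13 to 0.49 in EV and 0.34 to 0.48 in dHLH-Bmal1. The difference of WT-Bmal1 from EV ran from 0.40 to 0.73 for shMyh9#2 and -0.19 to 0.16 for shMyh9#4, that of dHLH-Bmal1 from -0.0803 to 0.27 for shMyh9#4, and the dHLH-Bmal1 effect in aC3 less YUMM2.1 from -0.86 to -0.48.

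The count of called genes moved by over 1.5 times in 18 of 27 comparisons without the filter, 12 of 23 in 1 fit of all libraries, 7 of 27 under DESeq2, 6 of 27 with the block and 4 of 7 with the YUMM2.1 labels exchanged. It was 64 for B16-F10 KO (56 to 1952 over the alternatives), 83 for shMyh9#2 in dHLH-Bmal1 (73 to 269), 35 for shMyh9#4 in WT-Bmal1 (20 to 305) and 0 for YUMM2.1 WT-Bmal1 against EV (0 to 101).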

Other observations

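Of 14 tested genes that carry part of the repeat stretch on the same strand, 4 rose and 1 fell in dHLH-Bmal1 cells with shMyh9#4 (median 0.13). Those that rose were Ccdc36 (1.45, adjusted p = 0.00117), Timm22 (1.29, adjusted p = 0.00464), Kif3a (1.11, adjusted p = 0.00181) and Pip5k1a (0.33), and Ints9 fell (-0.86), in a comparison where edgeR called 15.1% of genes. The value of Dennd4a was 0.65 (adjusted p = 0.0807). With shMyh9#2 in the same cells, where Lrrc17 rose by 0.78, edgeR called 0.559% of genes and none of the 14 (median 0.25). Values there were 0.70 for Ccdc36, 0.66 for Timm22, 0.57 for Kif3a and 0.24 for Dennd4a. These genes were chosen for their sequence and level after the counts were seen.

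Near Lrrc17, Armc10 (-0.69, adjusted p = 0.0106) and Psmc2 (-0.59, adjusted p = 0.0133) fell with shMyh9#4 in dHLH-Bmal1 cells, where Lrrc17 rose by 0.41.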
